A study of Mus musculus with 2 samples.

Results

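The 47 genes described here carry glucose and lactate across membranes, run glycolysis, feed pyruvate into mitochondria and turn the citric acid cycle. They were chosen by symbol, as 47 of the 32285 genes in the count tables, and none was chosen for its measured values. By role they comprise 2 glucose transporter genes, 12 genes of upper glycolysis, 6 of lower glycolysis, 6 of lactate turnover and export, 9 of pyruvate entry, 9 of the citric acid cycle and 3 of the malate-aspartate shuttle. Retinas came from 13-week-old mice of genotype C57BLKS-Leprwt/wt (wild type) and C57BLKS-Leprdb/db (db/db), which received no treatment. The db allele disrupts the leptin receptor gene Lepr in every cell of the animal, and homozygotes are used as an obese, diabetic model. Retinas of both eyes of 2 mice per genotype went into 1 droplet library per genotype, so that animals were pooled and no cell could be assigned to a mouse. With 1 library per genotype there is no test between genotypes. All intervals are at 95% and cover counting error only, so that a difference between the libraries has nothing to check it across mice. Where a pair of values is given, the wild-type value comes first and the db/db value second.

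Glycolysis splits glucose into pyruvate, which lactate dehydrogenase can turn into lactate or which can enter mitochondria through the pyruvate carrier and the pyruvate dehydrogenase complex. The retina is known for aerobic glycolysis, the conversion of much of its glucose to lactate in the presence of oxygen, and photoreceptors carry most of it. Several steps have alternative isoforms encoded by separate genes. Hexokinase 2 in place of hexokinase 1, and the A in place of the B subunit of lactate dehydrogenase, are isoform choices classically linked with high glycolytic flux, whereas aldolase C and the B subunit are textbook glial and oxidative forms.

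The wild-type library held 10308 barcodes and 35642274 unique molecular identifiers (UMIs), and the db/db library 11083 barcodes and 33742189 UMIs. Only 26 barcodes occurred in both. Kept cells numbered 10230 and 10963, with a median of 2314 and 2051 UMIs. Cells were assigned to a class by the summed UMIs of marker genes per 10000 UMIs of the cell, which gave 8384 wild-type and 9587 db/db rod-gated cells, 425 and 410 cone-gated cells, 524 and 387 bipolar-gated cells, 252 and 142 Müller-gated cells, and 51 and 51 cells gated as microglia or macrophages. Median depths were 2255 and 1976 UMIs in rods, 4424 and 4672 in cones, 3191.5 and 3191 in bipolar cells, 3838 and 3350 in Müller glia, and 1898 and 4816 in microglia. A gate cuts a continuous score, so each class is a range and not a type. Cells within 20% above the rod gate numbered 324 and 332, and at most 34 cells of any other class and library lay that close to their gate.

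The gated cells carried the markers of their class, as the gates themselves require. The cone and Müller marker values that follow therefore describe the gates and are no check of the classes. Cone-gated cells had a median of 355 and 329 cone marker UMIs per 10000, against 3.82 and 3.07 in rods. Müller-gated cells had 279 and 294 Müller marker UMIs per 10000, against 0 in rods of both libraries. Of the 6 endothelial markers, Flt1 had 789 and 474 UMIs in the Müller gate and Kdr 917 and 376, while Cldn5 (1 and 0 UMIs), Pecam1 (2 and 0), Egfl7 (4 and 0) and Ly6c1 (0 and 0), which define endothelial cells, were at or near 0. Rod markers were present in every class. Their level in the other classes was 19.3 to 27.2% of the level over all kept cells of the library, taken here as an estimate of free RNA. Empty droplets were not used, and doublets with rods, or a cell's own expression of a rod marker, would raise this estimate. The level of a member expected from free RNA alone is the estimated percentage of its level in the library. Above that expectation in both libraries were 43 of the 47 members in cones, 44 in bipolar cells, 39 in Müller glia and 15 in microglia. A member counted as above when the lower bound of its counting interval passed the expectation. Few UMIs, as in microglia, make this harder. The same count was not made over all genes, so these numbers have no background.

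Results turn on 2 isoform choices, hexokinase and lactate dehydrogenase, and the 250 bases before the RefSeq start of these genes (GRCm38.p6) show how their promoters differ in sequence. Hk2 lies at chr6:82725025-82774454 on the minus strand and its upstream window at chr6:82774455-82774704. Hk1 lies at chr10:62268855-62379908 on the minus strand and has several annotated starts, of which the outermost was taken (chr10:62379909-62380158). Ldha lies on the plus strand at chr7:46841475-46855627 and has 2 annotated windows, of which the nearest to the gene start was taken (chr7:46845554-46845803). Ldhb lies on the minus strand at chr6:142490249-142507957, with the window chr6:142507958-142508207. Capitals mark the core of the hypoxia response element, ACGTG or its reverse complement CACGT, and overlapping matches share their letters.
Hk2: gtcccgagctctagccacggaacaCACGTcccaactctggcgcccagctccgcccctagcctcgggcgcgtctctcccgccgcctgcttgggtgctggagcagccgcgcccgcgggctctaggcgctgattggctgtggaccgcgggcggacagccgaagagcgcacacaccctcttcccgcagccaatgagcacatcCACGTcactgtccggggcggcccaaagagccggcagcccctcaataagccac
Hk1: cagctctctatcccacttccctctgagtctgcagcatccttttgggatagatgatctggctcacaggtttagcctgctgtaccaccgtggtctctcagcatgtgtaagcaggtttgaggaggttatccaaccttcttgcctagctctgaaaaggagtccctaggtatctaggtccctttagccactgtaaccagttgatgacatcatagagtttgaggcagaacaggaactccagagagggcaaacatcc
Ldha: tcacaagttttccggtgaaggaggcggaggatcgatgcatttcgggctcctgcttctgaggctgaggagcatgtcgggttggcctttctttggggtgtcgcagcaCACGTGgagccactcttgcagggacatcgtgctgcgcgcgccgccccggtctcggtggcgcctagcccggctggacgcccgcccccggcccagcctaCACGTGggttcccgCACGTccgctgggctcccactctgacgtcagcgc
Ldhb: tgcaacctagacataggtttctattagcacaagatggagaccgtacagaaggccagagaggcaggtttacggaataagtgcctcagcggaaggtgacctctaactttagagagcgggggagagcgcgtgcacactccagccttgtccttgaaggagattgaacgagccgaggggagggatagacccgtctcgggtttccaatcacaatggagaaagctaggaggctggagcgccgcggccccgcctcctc

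The hypoxia core matched 2 times before Hk2 and 5 times before Ldha, counting both strands, and 0 times in the windows taken for Hk1 and Ldhb. Each CACGTG before Ldha counts once per strand. Matches in the other windows of Hk1 and Ldha are not given, and which start retinal cells use was not examined. Of the 44 members that matched the RefSeq promoter table by symbol, 15 (34.1%) held at least 1 match, against 16.6% of all 32851 windows of the same length. The core TAATCC (reverse complement GGATTA) of the photoreceptor factor CRX was found in 4 of the 44 windows (9.09%), those of Pfkp, Pfkfb4, Aldoc and Cs, against 6.25% of all windows. These matches describe the letters of the windows only.

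Summed over the 47 genes, the pathway took a similar share of all UMIs in the 3 neuronal classes and less in microglia. Its share was 1.67 and 1.71% in rods, 1.66 and 1.82% in cones, 1.59 and 1.62% in bipolar cells, 1.38 and 1.48% in Müller glia, and 0.569 and 0.532% in microglia. Levels of single genes are given below as UMIs per 1000000 UMIs of the class (CPM). A 3' UMI marks 1 transcript end and is not divided by length. The heat map of the 47 levels shows which isoforms filled the pathway in each class.

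**Figure D1:**
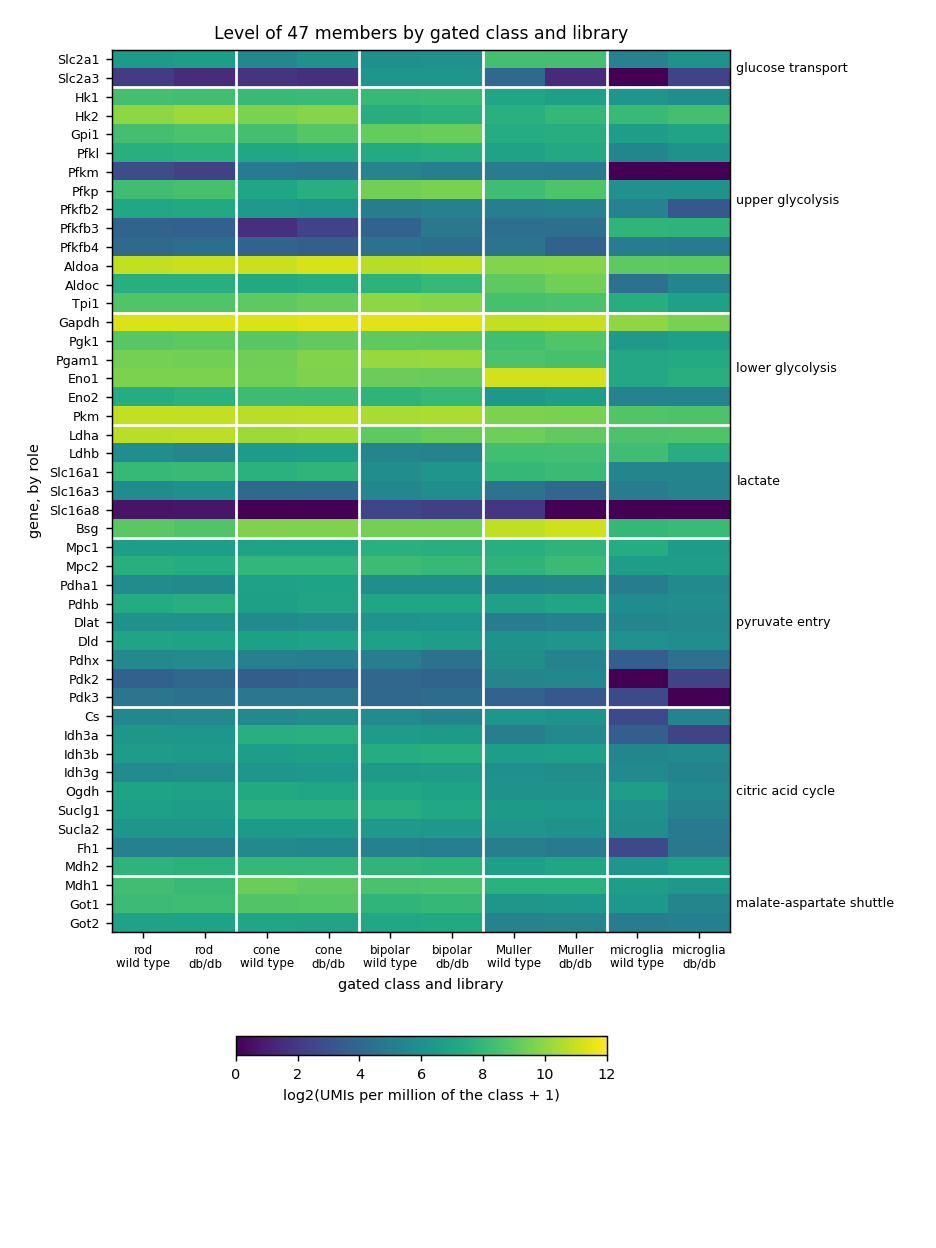
Level of each of the 47 genes (rows, ordered by role) in 5 gated classes and 2 libraries (columns), as log2 of CPM plus 1. Hk2 and Ldha are brightest in rods and cones, Slc2a3 stands out in bipolar cells alone, Eno1, Aldoc, Ldhb and Bsg are brighter in Müller glia than in the neurons, and the rows of microglia are dark except for Pfkfb3, Ldhb and a few abundant genes.

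For glucose transport, Slc2a1 was highest in Müller glia and Slc2a3 in bipolar cells. Slc2a1 encodes GLUT1, the general glucose transporter. Its level was 335 CPM in wild-type and 352 CPM in db/db Müller glia, 91.4 and 104 CPM in rods, 63.9 and 65.3 CPM in bipolar cells, and 48.0 and 69.4 CPM in cones. Müller glia were the highest class, with intervals in the wild-type library of 302 to 371 CPM against 87.9 to 94.9 CPM in rods. In microglia Slc2a1 was at 38.9 and 71.2 CPM, from 7 and 16 UMIs, and was above free RNA in the db/db library only. Slc2a3 encodes GLUT3, the high-affinity neuronal glucose transporter. It reached 75.0 and 74.5 CPM in bipolar cells but only 3.33 and 1.84 CPM in rods and 2.67 and 2.13 CPM in cones. Slc2a3 therefore made up 54.0% (47.4 to 60.4%) and 53.3% (45.8 to 60.7%) of the UMIs of the 2 transporter genes in bipolar cells, and at most 5.88% in every other class and library.

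Hexokinase, which traps glucose in the cell, split the photoreceptors from bipolar cells and Müller glia by its Hk2 level. Hk2 was at 1009 and 1198 CPM in rods and at 790 and 891 CPM in cones. In bipolar cells it was at 174 and 203 CPM, 5.79-fold and 5.91-fold below rods, and in Müller glia at 198 and 250 CPM. Neither of these lower levels stood above free RNA, which alone would give 200 and 241 CPM in bipolar cells and 235 and 247 CPM in Müller glia. Hk1 was spread more evenly, at 352 and 332 CPM in rods, 270 and 290 CPM in cones, 266 and 274 CPM in bipolar cells and 131 and 111 CPM in Müller glia. Unlike Hk2, it was above free RNA in bipolar cells and Müller glia of both libraries. The Hk2 share of hexokinase UMIs was 74.1% (73.7 to 74.6%) and 78.3% (77.9 to 78.7%) in rods and 74.5 and 75.5% in cones. In bipolar cells it was 39.6% (36.1 to 43.2%) and 42.5% (38.6 to 46.5%), and in Müller glia 60.2 and 69.2%. With free RNA subtracted, the Hk2 share in bipolar cells was 0 in both libraries, and in cones it stayed at 75.2 and 74.4%. In Müller glia it was then 0 and 4.17%, of only 50 and 24 corrected hexokinase UMIs. Microglia had 272 and 347 CPM of Hk2, above free RNA, and 77.8 and 62.3 CPM of Hk1, which was not.

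Phosphofructokinase commits sugar to glycolysis, and its 3 isoforms were mixed differently in each class. Pfkp, the platelet isoform, led in bipolar cells with 77.0 and 78.4% of the family's UMIs (692 and 763 CPM), in Müller glia with 67.9 and 69.1% and in rods with 61.9 and 64.3%. Cones had 45.0 and 49.6% Pfkp and 45.6 and 43.2% Pfkl, the liver isoform. Free RNA made up an expected 65.4 and 54.7% of cone Pfkp, and with it subtracted Pfkl led in cones, with 55.0 and 49.9% against 29.3 and 38.6% Pfkp. Pfkm, the muscle isoform, was a minor form everywhere. It was nearly missing in rods, at 6.24 and 3.93 CPM, against 28.8 and 26.7 CPM in cones and 43.6 and 35.3 CPM in bipolar cells. The bifunctional PFKFB enzymes set fructose 2,6-bisphosphate, an activator of phosphofructokinase. Pfkfb2 led in photoreceptors, at 143 and 154 CPM in rods and 87.5 and 77.4 CPM in cones, with 82.6 and 82.9% of the family in rods. In bipolar cells and Müller glia Pfkfb2 was at 33.1 to 38.2 CPM and not above free RNA in either library. Microglia had another leading member. Pfkfb3, the strongly kinase-biased isoform, was at 233 CPM (168 to 316) and 222 CPM (165 to 293) there, against 12.4 to 13.2 CPM in rods, and made up 76.4 and 84.7% of the microglial family UMIs. In microglia Pfkfb2 was at 38.9 and 8.90 CPM, from 7 and 2 UMIs.

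Aldolase cleaves fructose 1,6-bisphosphate. Aldoa was among the most abundant members, at 1907 and 2125 CPM in rods, 2094 and 2467 CPM in cones, and 1671 and 1778 CPM in bipolar cells. It was lower in Müller glia, at 888 and 906 CPM. Aldoc ran the other way, at 520.0 and 705 CPM in Müller glia and 153 to 260 CPM in the 3 neuronal classes. Its share of aldolase UMIs was 36.9% (34.5 to 39.4%) and 43.8% (40.5 to 47.01%) in Müller glia against 8.64 and 7.82% in rods and 6.81 and 6.59% in cones. After subtraction of free RNA Aldoc was the leading aldolase of Müller glia, with 54.0 and 60.3%. In microglia Aldoa was at 511 and 498 CPM and Aldoc at 22.2 and 44.5 CPM, and neither was above free RNA in both libraries.

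The lower steps were dominated by Gapdh, Pkm and Eno1. Gapdh, the dehydrogenase that yields NADH, was at 2586 and 2533 CPM in rods, 2595 and 2878 CPM in cones, 2842 and 2793 CPM in bipolar cells and 1892 and 1989 CPM in Müller glia. Which class was highest differed between the libraries for Gapdh. Pkm encodes the pyruvate kinases M1 and M2, which a 3' count cannot tell apart. Its level was 1936 and 1927 CPM in rods, 1713 and 1790.0 CPM in cones, 1432 and 1466 CPM in bipolar cells, 800.2 and 779 CPM in Müller glia and 434 and 396 CPM in microglia, the same order in both libraries. Enolase split by class. Eno1 was at 2308 and 2318 CPM in Müller glia, against 594 to 815 CPM in the neuronal classes. Eno2, the neuron-specific enolase, was at 300.2 and 298 CPM in cones, 226 and 263 CPM in bipolar cells and 170.3 and 199 CPM in rods, and made up 3.46 and 4.37% of enolase UMIs in Müller glia. Gapdh, Pgam1, Tpi1, Ldha, Aldoa and Eno1 have near-identical copies in the mouse genome, so that counts of these genes are uncertain to the extent that reads were shared or dropped. The Eno1 copy Eno1b had 24.9 and 29.9 CPM in rods and 71.0 and 85.0 CPM in Müller glia.

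Among lactate genes, Ldha for the A subunit was highest in photoreceptors and led in all neuronal classes, and Müller glia added the B subunit. Ldha was at 1751 and 1789 CPM in rods and 1263 and 1294 CPM in cones. It was at 526 and 631 CPM in bipolar cells, 646 and 538 CPM in Müller glia and 395 and 414 CPM in microglia, and 57.6 to 80.7% of those lower levels was the amount expected from free RNA. Ldhb was at 334 and 344 CPM in Müller glia and 322 and 178 CPM in microglia. The neurons had 40.7 to 101 CPM, with rods at 58.4 and 46.3 CPM. Ldhb accordingly made up 3.23 and 2.52% of lactate dehydrogenase UMIs in rods, 6.92 and 7.23% in cones and 7.56 and 6.06% in bipolar cells. It made up 34.1% (31.3 to 37.0%) and 39.0% (34.7 to 43.4%) in Müller glia. In microglia it made up 45.0% (36.2 to 54.0%) and 30.1% (22.4 to 38.6%). With free RNA subtracted it was the larger part in Müller glia (57.4 and 66.7%) and in microglia (77.5 and 67.3%). In cones it was then 7.96 and 9.06%, and in bipolar cells 12.6 and 9.38%.

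Lactate leaves cells through the monocarboxylate transporters, which need the chaperone basigin. Slc16a1, encoding MCT1, was at 262 and 272 CPM in rods, 202 and 228 CPM in cones, 251 and 288 CPM in Müller glia, and 60.4 and 76.0 CPM in bipolar cells. Among Slc16a1, Slc16a3 and Slc16a8 it led in each of these classes, with 82.0 and 81.0% in rods and 54.5 and 55.0% in bipolar cells. In wild-type bipolar cells, however, it was not above free RNA. With free RNA subtracted, Slc16a3 led the same genes in bipolar cells with 76.6 and 67.0%. These shares leave out the lactate transporter gene Slc16a7, no member, which had 61 and 107 UMIs in bipolar cells, against 104 and 99 for Slc16a1. Slc16a3, encoding MCT4, was at 56.8 and 63.3 CPM in rods and 45.9 and 58.4 CPM in bipolar cells, and in cones at 16.5 and 16.0 CPM, not above free RNA. Slc16a8, encoding MCT3 of the pigment epithelium, was at 0.561 and 0.638 CPM in rods. Cells that passed the pigment epithelium gate, 27 and 5 in number, had 894 and 1814 CPM of it, so the transcript was countable in these libraries. Bsg, encoding basigin, was at 1838 and 2237 CPM in Müller glia, 808 and 827 CPM in cones, 724 and 717 CPM in bipolar cells and 491 and 424 CPM in rods.

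**Figure D2:**
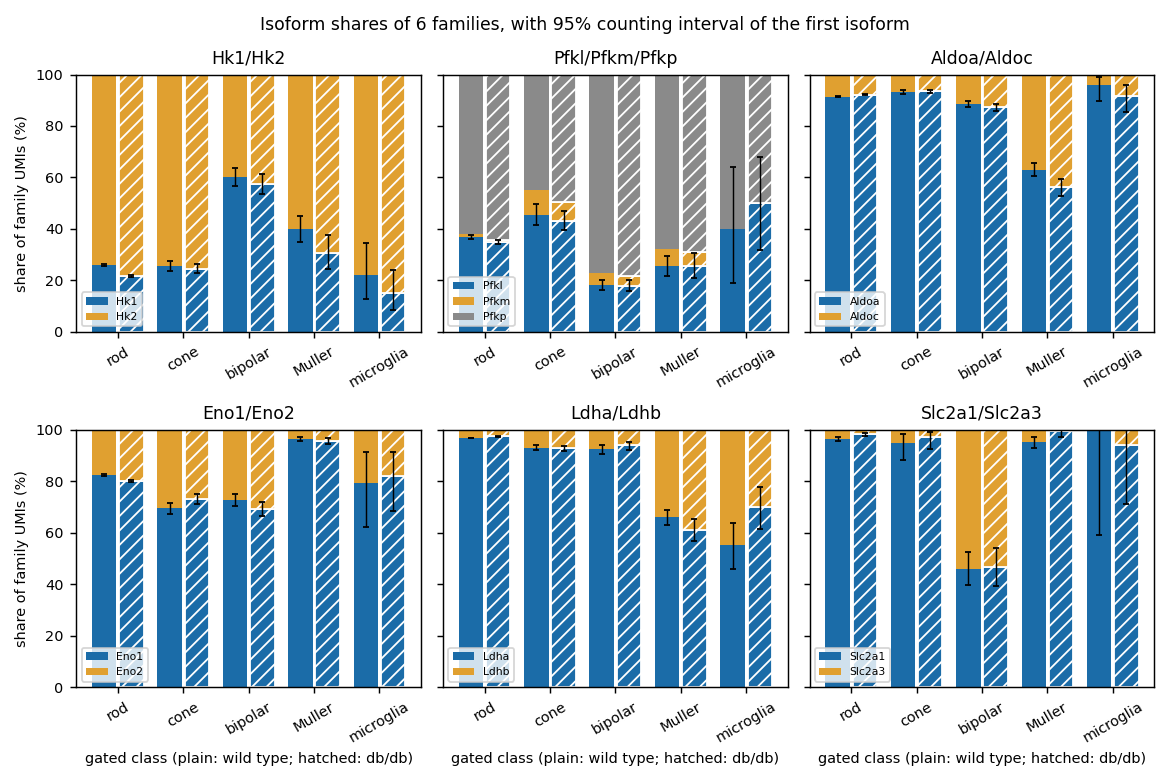
Share of UMIs (y axis, percent) of each isoform in 6 gene families, for 5 gated classes (x axis) and 2 libraries (plain bars wild type, hatched bars db/db), with the 95% counting interval of the first isoform as error bars and no correction for free RNA. The Hk2 share lies between 74.1 and 78.3% in rods and cones, Slc2a3 exceeds 50% in bipolar cells only, and the Aldoc and Ldhb shares in Müller glia (36.9 and 43.8%, and 34.1 and 39.0%) lie above those of the neurons.

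Genes of the citric acid cycle most often had their highest level in cones. Those of pyruvate entry were spread over the classes. Pdha1 and Pdk3 led in cones in both libraries, Pdhb in rods, Dlat in bipolar cells and Pdk2 in Müller glia. For Mpc1, Mpc2, Dld and Pdhx the leading class differed between the libraries. Idh3a, the catalytic subunit of the NAD-dependent isocitrate dehydrogenase, was at 181 and 197 CPM in cones, 98.2 and 91.4 CPM in bipolar cells, 81.2 and 81.3 CPM in rods and 34.1 and 48.6 CPM in Müller glia. Cs, the citrate synthase, was instead at 77.2 and 69.4 CPM in Müller glia, against 42.2 to 61.4 CPM in the neurons, and its interval in Müller glia overlapped that of a neuronal class in each library. In microglia Cs and Idh3a rested on 1 to 9 UMIs per library. Pdha1, the catalytic subunit of pyruvate dehydrogenase, was at 117 and 125 CPM in cones and 54.5 and 52.6 CPM in rods. Its kinase Pdk2, which switches the enzyme off, was at 43.1 and 46.9 CPM in Müller glia and 10.7 to 15.0 CPM in the neurons, so that Pdk2 made up 77.4 and 84.4% of the UMIs of Pdk2 and Pdk3 in Müller glia and 32.3 and 40.4% in rods. These shares leave out the kinase gene Pdk1, no member. Pdk1 had 579 and 814 UMIs in rods, against 344 and 424 for Pdk2, and 17 and 12 in Müller glia, against 48 and 27. Mdh1, the cytosolic malate dehydrogenase of the NADH shuttle, was at 626 and 540 CPM in cones and 321 and 284 CPM in rods. Got1, its partner aminotransferase, was at 434 and 463 CPM in cones and 79.9 and 83.3 CPM in Müller glia.

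By class, the highest level of the 5 in both libraries fell in cones for 12 members, in bipolar cells for 11, in rods for 8, in Müller glia for 7 and in microglia for 2. The remaining 7 had different leading classes in the 2 libraries. The 8 that led in rods were Hk1, Hk2, Pfkl, Pfkfb2, Pkm, Ldha, Slc16a3 and Pdhb. Among the 12 that led in cones, 8 belonged to pyruvate entry or the citric acid cycle (Pdha1, Pdk3, Idh3a, Ogdh, Suclg1, Sucla2, Fh1 and Mdh2), with Mdh1 and Got1 of the shuttle, Aldoa and Eno2. These orders include neighbours that lie within each other's counting interval. The leading classes of all genes are not given, so the numbers per class have no background.

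Differences from rods were counted where the counting interval lay beyond 2-fold in both libraries, with all measured genes as background. Cones had 1 member higher (Pfkm) and 1 lower (Slc16a3) of 44 measured, against 5.05 and 2.33% of all genes. Other members missed only the interval rule. Idh3a was 2.23-fold and 2.43-fold and Pdha1 2.14-fold and 2.37-fold above rods, and Pfkp 2.33-fold and 2.02-fold below. Bipolar cells had 2 members higher (Slc2a3 and Pfkm) and 4 lower (Hk2, Pfkfb2, Ldha and Slc16a1) of 45, against 14.0 and 6.08% of all genes. Müller glia had 7 higher and 7 lower of 42, against 16.0 and 6.23%. The 7 higher were Slc2a1, Pfkm, Aldoc, Eno1, Ldhb, Bsg and Pdk2, and the 7 lower Hk1, Hk2, Pfkfb2, Aldoa, Pkm, Ldha and Got1. Microglia had 2 higher (Pfkfb3 and Ldhb) and 16 lower of 27, against 24.1 and 18.4%. Free rod RNA was present in each of these classes and narrows a difference for any gene that is high in rods.

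Between the libraries, most members differed little. A member was counted as called when its ratio was past 1.2-fold (0.263 on the log2 scale) and its counting interval excluded no difference, among genes with at least 50 UMIs in the class. Ratios are log2 of db/db over wild type. A lower level in a class can reflect fewer cells that carry the RNA or less RNA per cell.

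In rods, 1 member was called higher and 3 lower of 46 measured, against 6.45 and 5.72% of all 12223 measured genes. The member median was 0.01 and that of all genes 0.02. Pdk2 was higher at 0.32 (0.11 to 0.53), from 12.1 to 15.0 CPM. The 3 called lower were Slc2a3 at -0.85 (-1.37 to -0.35), Pfkm at -0.67 (-1.02 to -0.32) and Ldhb at -0.33 (-0.44 to -0.23). All 3 were scarce in rods and higher in another class, namely bipolar cells for Slc2a3 and Pfkm and Müller glia for Ldhb. Summed markers of most other classes moved the same way in rods. Erythroid markers instead went from 15.7 to 48.4 CPM, ganglion cell markers from 29.9 to 33.7 CPM and astrocyte markers from 0.771 to 0.921 CPM. The summed Müller markers were at 379 CPM in wild-type and 293 CPM in db/db rods, with 12 of 12 lower, cone markers at 1194 and 863 CPM with 12 of 12 lower, and bipolar markers at 196 and 180 CPM with 15 of 16 lower. Their part in the result was not tested. Thinning to 1000 UMIs left out cells with fewer, so that 6856 and 8429 rods remained. With these cells thinned, 0 members were called in either direction, and Pdk2 was at 0.14.

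Abundant rod members stayed within the 1.2-fold limit, several with narrow intervals that excluded no difference. Hk2, the main hexokinase of rods, was higher at 0.25 (0.22 to 0.27), just under the limit. Eno2 at 0.22 (0.17 to 0.28), Pfkp at 0.20 (0.16 to 0.24), Slc2a1 at 0.19 (0.11 to 0.26), Aldoa at 0.16 (0.14 to 0.17) and Pfkfb2 at 0.11 (0.05 to 0.18) were also above 0. On the other side lay Bsg at -0.21 (-0.25 to -0.18), Mdh1 at -0.18 (-0.22 to -0.13) and Hk1 at -0.08 (-0.12 to -0.04). Ldha at 0.03, Pkm at -0.01, Gapdh at -0.03, Aldoc at 0.00, Slc16a1 at 0.06 and Idh3a at 0.00 lay close to 0, and Cs was at 0.16 (0.05 to 0.27). The isoform share of Hk2 in rods, 74.1 against 78.3%, had intervals that did not overlap.

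In cones the ratios leaned to the positive side. Of 42 measured members 30 had a ratio above 0, or 71.4%, against 52.7% of all measured genes, with a median of 0.10 against 0.00. The median was 0.046 with a stricter gate. Nuclear genes of the respiratory chain leaned the same way in cones, with 67.5% above 0. Called higher were 4 and lower 0, against 3.53 and 2.99% of all genes. Slc2a1 was higher at 0.53 (0.13 to 0.94), from 90 to 130 UMIs. Gpi1, the isomerase after hexokinase, was higher at 0.40 (0.26 to 0.55), with 350 and 463 CPM. Pfkp at 0.40 (0.17 to 0.64) and the mutase gene Pgam1 at 0.34 (0.23 to 0.44) completed the 4. The medians were 0.19 for 10 measured genes of upper glycolysis and 0.17 for the 6 of lower glycolysis, against 0.03 for lactate genes, 0.05 for pyruvate entry, 0.03 for the citric acid cycle and -0.06 for the shuttle. Hk1 at 0.10, Hk2 at 0.17, Aldoa at 0.24, Aldoc at 0.18, Pkm at 0.06, Ldha at 0.03, Ldhb at 0.10, Slc16a1 at 0.18, Cs at 0.34 and Idh3a at 0.13 were not called, nor was Pfkfb2 at -0.18. A positive median of glycolysis genes in cones had been seen in these same libraries before, so these values are no independent support for it. Rod markers in cones were at 18514 and 17651 summed CPM, with 6 of 12 lower. With equal weight per cell 7 members were called higher, without a share of all genes under that setting, and Pfkp was then at 0.14.

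Bipolar cells showed no common direction, with a median of 0.00 over 44 measured members and -0.01 over all genes. Called were 2 higher and 1 lower, against 4.29 and 4.42%. Pfkfb3 was higher at 1.01 (0.21 to 1.83), but from 23 and 35 UMIs. Aldoc was higher at 0.29 (0.07 to 0.50), with 213 and 260 CPM, and Suclg1, a subunit of succinyl-CoA ligase, lower at -0.33 (-0.60 to -0.06). With cells thinned to 1000 UMIs Aldoc was at -0.0060. Ldha missed the limit at 0.26 (0.12 to 0.40). Slc2a3, the leading transporter of this class, was at -0.01 (-0.40 to 0.38), and Slc2a1 at 0.03, Hk1 at 0.05, Hk2 at 0.22, Pfkfb2 at 0.15, Aldoa at 0.09, Pkm at 0.03, Ldhb at -0.08, Slc16a1 at 0.33, Cs at -0.34 and Idh3a at -0.10 were not called.

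Müller glia had 6 members called higher and 1 lower of 41 measured, against 5.09 and 4.92% of all genes, with a median of 0.07 against 0.01 and 70.7% of ratios above 0 against 50.7%. The median was 0.0023 with a stricter gate and 0.19 with a looser one. The glial aldolase Aldoc was higher at 0.44 (0.25 to 0.62), from 520.0 to 705 CPM. Pgk1, the first ATP-yielding kinase, was higher at 0.37 (0.13 to 0.61), Pfkp at 0.36 (0.11 to 0.60) and the pyruvate carrier subunit Mpc2 at 0.35 (0.06 to 0.64). Bsg was higher at 0.28 (0.18 to 0.38), and over 10 alternatives its ratio ranged from 0.20 to 0.29, past the limit in 4. Hk2 was called at 0.33 (0.02 to 0.64), although in neither library did it exceed free RNA, and with free RNA subtracted its ratio was -0.70. Ldha was lower at -0.26 (-0.46 to -0.07), where free RNA made up an expected 64.0 and 69.3% of the level. Rod markers in the Müller gate were at 12118 and 10628 summed CPM, with 11 of 12 lower in the db/db library, and bipolar markers at 689 and 465 CPM, with 13 of 16 lower. Their part in the result was not tested. With a looser gate Ldha was at 0.046, and thinning to 1000 UMIs left 2 members called higher and 0 lower. Slc2a1 at 0.07, Hk1 at -0.24, Pfkfb2 at 0.16, Aldoa at 0.03, Pkm at -0.04, Ldhb at 0.04, Slc16a1 at 0.20, Cs at -0.15 and Idh3a at 0.51 (-0.25 to 1.25) were not called.

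**Figure D3:**
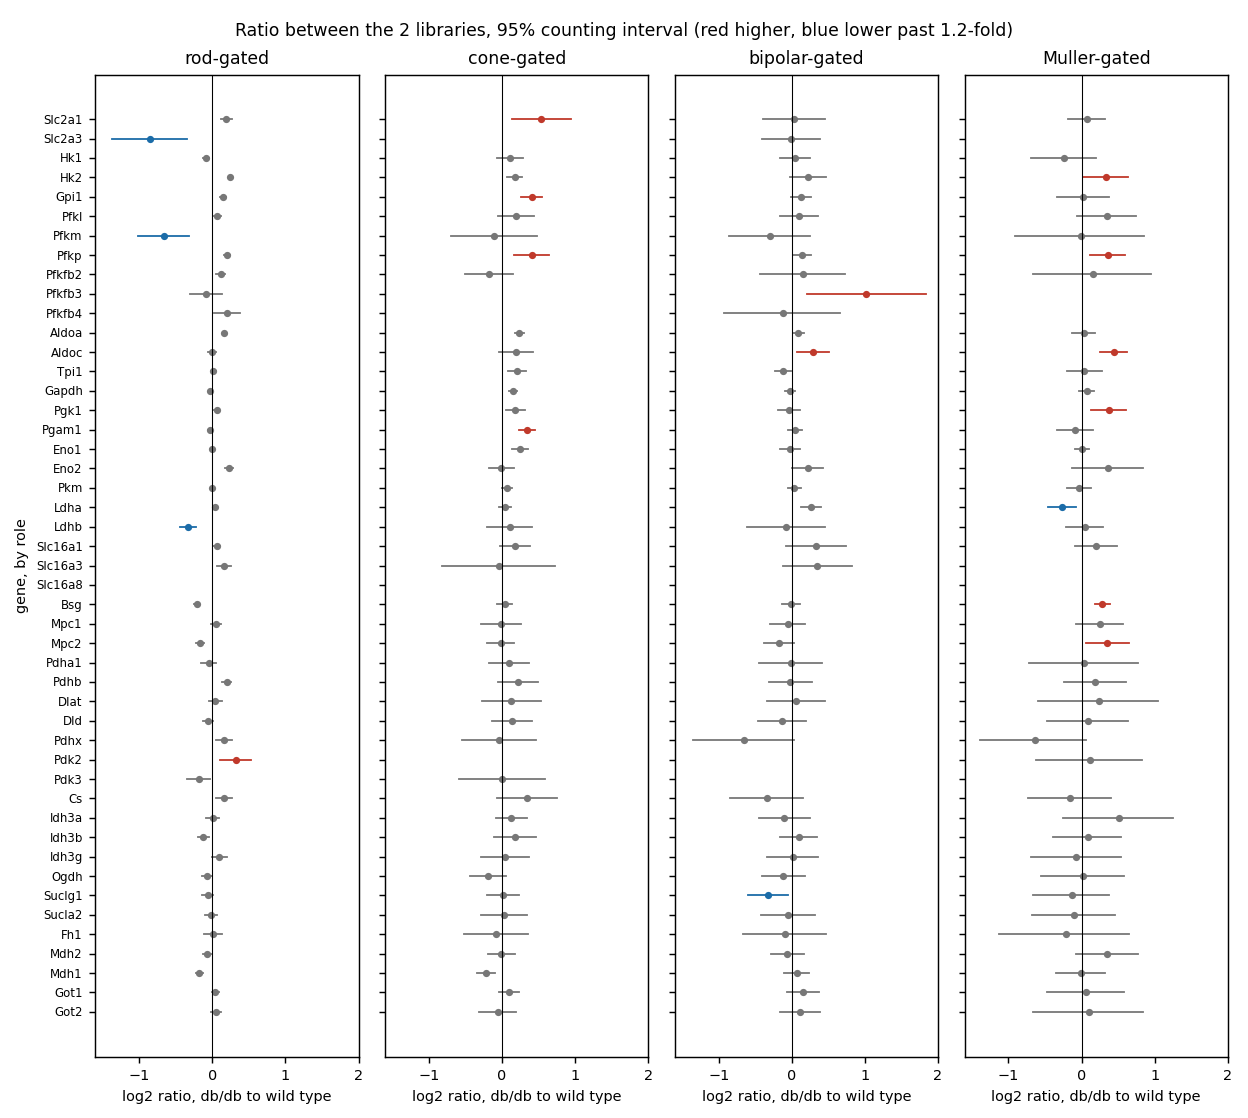
Log2 ratio of db/db over wild type (x axis) for each measured gene (y axis, ordered by role) in rods, cones, bipolar cells and Müller glia, with 95% counting intervals and red or blue for genes called past 1.2-fold. Rod ratios are narrow and centred on 0 with 3 blue genes, cone ratios of glycolysis lie mostly to the right, and the intervals of Müller glia are the widest.

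Microglia allowed 12 measured members, of which 0 were called higher and 2 lower, against 8.94 and 8.85% of 1231 genes. Ldhb was lower at -0.86 (-1.48 to -0.25), from 58 to 40 UMIs, and Gapdh at -0.42 (-0.73 to -0.11). Hk2 at 0.35 (-0.18 to 0.90), Pfkfb3 at -0.07 (-0.69 to 0.56), Aldoa at -0.04, Pkm at -0.13 and Ldha at 0.07 were not called, and the other genes followed in every class were not measured here. These cells differed between the libraries in other ways, with median depths of 1898 and 4816 UMIs and summed Müller-list markers of 1796 and 13234 CPM, of which Apoe alone gave 1273 and 12824 CPM. The part of these differences in the result was not tested.

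Other genes of the same pathways, a list of 59 that are no members, had medians of 0.03 in rods, 0.02 in cones, 0.14 in bipolar cells and -0.06 in Müller glia, with 21 of 41, 13 of 25, 19 of 29 and 6 of 20 ratios above 0. In rods 4 of 41 measured were called higher and 4 lower, against 6.45 and 5.72% of all genes. The higher ones were the glucose transporter gene Slc2a12 (0.69), Tigar (0.35), Pdk1 (0.51) and Pck2 (0.59), and the lower ones Eno3 (-0.33), Pgm1 (-0.33), Pgm2 (-1.39) and Idh2 (-0.41). In bipolar cells 3 of 29 were called higher (Slc16a7 at 1.21, Idh2 at 0.97 and Dlst at 0.47) and 2 lower (Pgm1 and Me1). The shares of all genes there were 4.29 and 4.42%. Slc16a7, encoding the pyruvate and lactate transporter MCT2, was at 35.5 and 82.2 CPM in bipolar cells and under 1 CPM in rods. In cones 0 were called higher and 1 lower of 25, against 3.53 and 2.99% of all genes. Müller glia had 0 and 0 of 20, against 5.09 and 4.92%, and microglia 0 and 0 of 2, against 8.94 and 8.85%. The 82 nuclear genes of the respiratory chain had medians of -0.11 in rods, 0.06 in cones, -0.05 in bipolar cells and 0.07 in Müller glia.

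Within rods, member levels moved with the share of UMIs from mitochondrial genes. Rods were split into those with a mitochondrial share under 2%, from 2 to 6% and over 6%, with levels per 1000000 non-mitochondrial UMIs. The strata held 33.7, 47.7 and 18.6% of wild-type rods and 42.2, 36.8 and 21.0% of db/db rods. The summed members were at 14992, 17526 and 21354 CPM in the wild-type and 14898, 18533 and 22971 CPM in the db/db library, higher in each next stratum of both. Comparing the lowest with the highest stratum, 9 members were higher and 21 lower of 45 in the wild-type library, against 51.3 and 12.8% of all genes, and 11 and 19 in the db/db library, against 53.6 and 13.4%. Their medians were -0.16 and -0.14, and those of all genes 0.39 and 0.41.

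Members of the same role lay on both sides in this comparison. Lower in rods of low mitochondrial share were Gapdh (-1.14 and -1.46 in the 2 libraries), Pgam1 (-1.01 and -1.25), Bsg (-0.99 and -1.36), Pkm (-0.82 and -1.06), Aldoa (-0.78 and -0.93) and Ldhb (-1.05 and -0.995). Gapdh was at 1864 CPM in the low and 4114 CPM in the high stratum of wild-type rods. Among genes of the first steps, Hk1 (-0.61 and -0.64), Gpi1 (-0.40 and -0.55) and Pfkl (-0.47 and -0.58) were lower as well. Higher were Pfkfb4 (1.08 and 1.18), Pfkfb2 (0.69 and 0.81), Pdhb (0.61 and 0.72), Eno2 (0.48 and 0.35) and Hk2 (0.27 and 0.28). Of these, Hk2 lay below the median of all genes in both libraries, and Eno2 in the db/db library. Hk2 was at 1117 and 923 CPM in the low and high strata of the wild-type library. Depth differed with the strata, with median UMIs of 1645, 2363 and 2482 in wild-type and 1657, 2096 and 2191 in db/db rods, and its part in the result was not tested.

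Within the strata the genotype ratios of some genes stayed on 1 side of 0 and those of others did not. Hk2 was at 0.21, 0.29 and 0.20 from the lowest to the highest stratum, past the limit only in the middle one. Ldhb was at -0.29, -0.26 and -0.35. Pfkm was at -0.56, -0.48 and -0.92. Slc2a3 was at -0.89, -1.33 and 0.45, the last from 9 and 14 UMIs. Pdk2, called higher over all rods, was at 0.50 (0.14 to 0.86), 0.25 and 0.22, past the limit in the lowest stratum only. Gapdh went from -0.17 in the lowest stratum to 0.15 in the highest, Pkm from -0.12 to 0.12 and Pgam1 from -0.10 to 0.13. Eno1 was at -0.08, 0.09 and 0.05. Bsg was below 0 in all 3 strata, from -0.43 to -0.07, and Aldoa above 0 in all 3. Calls numbered 1, 3 and 2 higher and 3, 1 and 2 lower, against 6.29, 5.10 and 4.68% and 5.44, 4.85 and 3.56% of all genes.

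**Figure D4:**
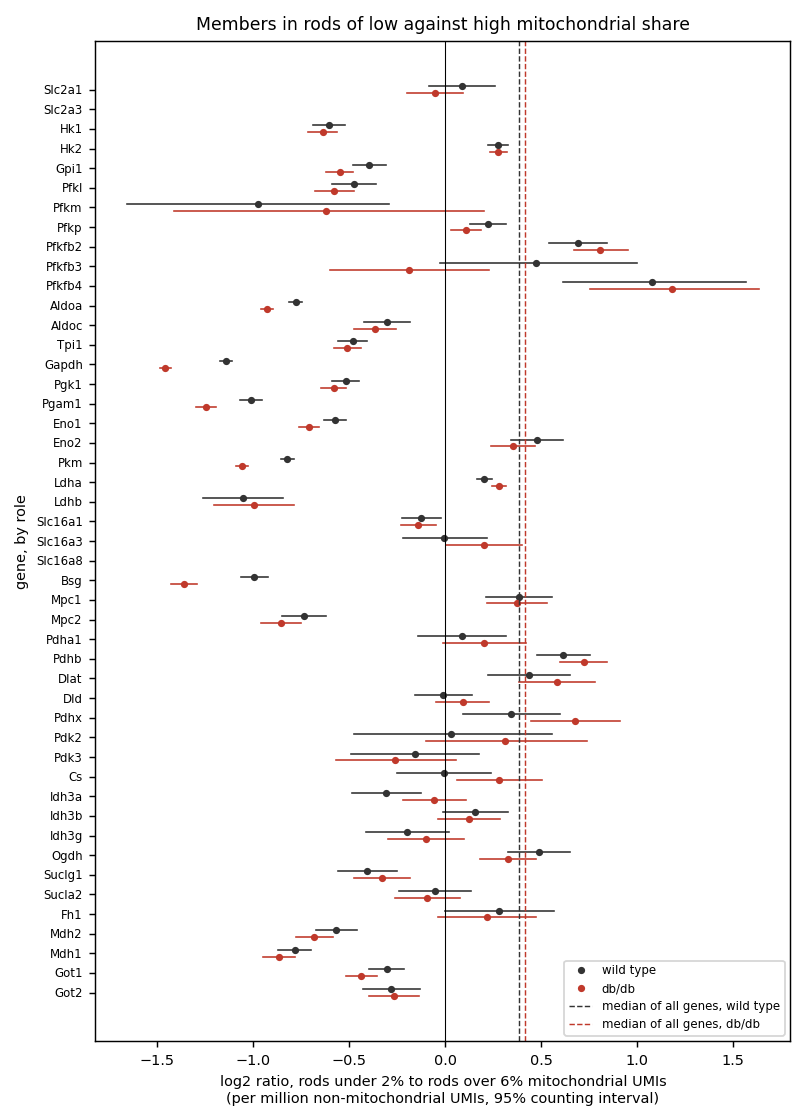
Log2 ratio of rods with a mitochondrial share under 2% to rods over 6% (x axis), for each measured gene (y axis), in the wild-type (black) and db/db (red) libraries, with 95% counting intervals and dashed lines at the median of all genes (0.39 and 0.41). The 2 libraries give similar values gene by gene, with Gapdh, Pgam1 and Bsg far to the left and Pfkfb4, Pfkfb2 and Pdhb to the right.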

How the data were processed

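Retinal cells of 2 libraries, wild type and db/db, were profiled with 10x Genomics 3' chemistry (kit v3.1, per the labels' protocols). The authors deposited raw counts of UMIs per gene and barcode, made with cellranger 6.0.1, per the file headers, on the mm10 genome, per the submitters' processing notes. For annotation release, cell calling and strand use, the sources used here give nothing. Matrices with every reported barcode were used. Positions came from GENCODE M21 (GRCm38) for 47 of 47 members, and upstream sequences from RefSeq. 2 rows with the symbol Aldoa were summed.

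Cells with at least 200 genes and at most 20% mitochondrial UMIs were kept. Gates required, per 10000 UMIs, 250 rod, 150 cone, 40 bipolar, 100 Müller or 40 microglial marker UMIs and 3 or 4 detected markers, with rod markers under 350 outside rods. The cut-offs were set on the marker distributions, not on member values. No doublet caller was run. Cells passing several gates (27 and 12) and cells of another gate with too much rod RNA (168 and 86) were set aside, so that doublets within a class and with rods under the limit remain. UMIs were summed per class and library and scaled to 1000000. Ratios replaced 0 UMIs by 3. Levels have exact Poisson, shares Clopper-Pearson and ratios conditional binomial intervals (scipy 1.17.1, numpy 2.4.6, pandas 2.3.3), tested on simulated counts. Text names members past 1.2-fold (up to 6 per direction and class), leading isoforms and 12 members followed in every class. Other members are given where they differ between classes or strata. The members and lists were chosen with earlier results of these data known. Alternatives changed the scaling, weighting, depth, mitochondrial limit, gates, UMI minimum and free RNA.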

Additional observations from a re-analysis of the deposited data

Results flagged for a closer look

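Ratios of 5 genes pointed in opposite directions in 2 cell classes, with counting intervals on opposite sides of 0. The share of all genes that do so is not given, so this count has no background. The differences between classes were not tested, since each class has 1 library per genotype. Gapdh was above 0 in cones (0.15) and below in microglia (-0.42). Pgam1 was above 0 in cones (0.34) and just below in rods (-0.03). Ldha was above 0 in rods (0.03) and in bipolar cells (0.26), and below in Müller glia (-0.26). In Müller glia most of the Ldha level was the amount expected from free RNA, and the looser gate gave 0.046. Bsg (0.28) and Mpc2 (0.35) were above 0 in Müller glia and below in rods (-0.21 and -0.17).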

How the results depend on the processing

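No paired analysis was possible because each genotype has 1 library. Of the alternatives for single gene ratios, 604 stayed within the counting interval, 64 left it and 4 reversed. The reversals were Aldoc in bipolar cells (-0.0060 with cells thinned to 1000 UMIs), Ldha in Müller glia (0.046 with the looser gate), Hk2 in Müller glia (-0.70 with free RNA subtracted) and Slc2a3 in rods (0.45 in the stratum with a mitochondrial share over 6%). Counts of called members also moved, and the causes were not tested. Shares of all genes under these alternatives are not given, so these counts cannot be set against a background. With equal weight per cell, the interval of the summed counts was shifted to the new ratio. Thinning leaves fewer UMIs and also leaves out cells under 1000 UMIs, so that 176 and 98 Müller cells remained. Thinning gave 0 higher and 0 lower in rods, 1 and 0 in bipolar cells, and 2 and 0 in Müller glia. Equal weight per cell gave 0 higher in rods, 7 higher in cones, 0 lower in bipolar cells and 2 lower in Müller glia. The stricter gate gave 1 lower in cones, 1 higher in bipolar cells and 0 lower in Müller glia, and the looser gate 1 higher in bipolar cells and 11 higher and 0 lower in Müller glia. A mitochondrial limit of 10% gave 5 higher and 2 lower in bipolar cells. Without the 5% of cells with most UMIs, 2 were lower in bipolar cells and 0 in Müller glia. With free RNA subtracted, 2 were lower in each of these classes. A minimum of 200 UMIs gave 1 higher in bipolar cells and 1 lower in microglia, a minimum of 10 UMIs 2 lower in Müller glia, and class totals without mitochondrial UMIs 0 lower in Müller glia. The member median moved to 0.046 in cones (stricter gate), to 0.052 to 0.069 in bipolar cells (3 alternatives), to 0.0023 and 0.19 in Müller glia (stricter and looser gate), and to between -0.49 and 0.049 in microglia (5 alternatives). For microglia, thinning, the stricter gate and leaving out the deepest cells were not run, since fewer than 50 cells per library remained. Over their 10 alternatives, ratios in cones ranged from 0.37 to 0.87 for Slc2a1, 0.34 to 0.51 for Gpi1, 0.14 to 0.78 for Pfkp and 0.20 to 0.47 for Pgam1, and Aldoc in Müller glia from 0.33 to 0.62.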
